A study of Mus musculus with 16 samples.

Results

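The nuclear pore complex is the channel through which proteins and RNA pass between the nucleus and the cytoplasm, and the genes described here are the 31 nucleoporins that build it. They were taken by name from a list, and all 31 were found among the 24421 gene symbols of the count table, of which 20499 had a count in at least 1 library. The sequenced RNA came from dorsal root ganglia of the lumbar level, which hold the cell bodies of sensory neurons, of C57BL/6 mouse embryos at embryonic day 13.5. Each of 4 groups held 4 libraries: knockouts of importin α3 (KO_alpha3), their line's wild types (WT_alpha3), mice that lack the 3′UTR of the importin β1 gene (KO_beta) and the wild types of that line (WT_beta). Per the design text, all 8 wild types were controls of both projects. The labels name no treatment. The sources used here do not say whether the deletions act in all cells, how many embryos went into a library or whether libraries came from separate embryos. P-values therefore measure only the spread between these samples, which may be technical.

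A pore is a ring of repeated subcomplexes. The outer ring, or Y complex, coats both faces of the pore, the inner ring lines its waist, and a transmembrane ring holds it in the nuclear envelope. The central channel is filled by nucleoporins with phenylalanine-glycine (FG) repeats, to which importin β1 and the other transport receptors bind while they carry cargo through. Filaments on the cytoplasmic side receive cargo and release exported mRNA, and a basket faces the nuclear interior. Pores are assembled into the envelope in interphase and are rebuilt after each mitosis, and pores of cells that no longer divide are long lived. By these roles the 31 genes were grouped as 9 of the outer ring, 5 of the inner ring, 3 of the transmembrane ring, 4 of the central FG channel, 7 of the cytoplasmic side and 3 of the nuclear basket. Across these groups 10 were counted as FG nucleoporins and 21 as others. Each gene was placed in a single group. The whole Nup98 transcript, with a coding sequence of 1816 codons, therefore counts for the central channel alone.

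Each library carries its group and the number from its label, and values by library follow the order 42, 50, 75 and 81 for KO_alpha3, 45, 54, 55 and 79 for WT_alpha3, 398, 402, 406 and 411 for KO_beta and 399, 401, 410 and 415 for WT_beta. Library totals ran from 19682595 to 26873361 counts, and every nucleoporin had at least 146 reads in every library. Kpna4, the gene of importin α3, fell to 1.13% of its wild-type level in KO_alpha3 (0.862 against 76.6 CPM, exact permutation p = 0.00202, the smallest that 495 splits allow). Kpnb1, the gene of importin β1, lay at 530 CPM in KO_beta and 437 CPM in the wild types (exact permutation p = 0.0121). In KO_alpha3 it lay at 514 CPM (exact permutation p = 0.0848), so a higher mean was not particular to KO_beta. A deletion in an untranslated region need not lower such a count, so the KO_beta value does not check the label. Of 14 sensory neuron markers 13 were matched and all 13 were detected in every group, summing to 2830 to 7072 CPM per library. WT_alpha3 45, WT_alpha3 79, WT_beta 399 and WT_beta 401 are called marker-high. Each was the highest of the 16 libraries in at least 1 list of markers of another cell type (skeletal muscle, spinal cord, sympathetic, erythroid, liver, epidermis or macrophage). Some library must be highest in each list, so this rule does not show that they stand apart. Of lists left out of the rule, fibroblast markers were highest in WT_beta 401. Endothelium markers were highest in WT_alpha3 79 (451.7 CPM), with KO_beta 411 close behind (451.3 CPM). Cartilage markers were highest in KO_alpha3 75 (289 CPM), glia and Schwann precursor markers in KO_alpha3 42 (1313 CPM) and progenitor markers in KO_alpha3 81 (834 CPM). Results that rest on the 4 marker-high libraries are given with and without them.

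The FG repeats can be read in the coding sequence. In the GENCODE M21 coding sequences (GRCm38), a codon for phenylalanine followed in frame by one for glycine occurred 46 times in Nup214, 41 times in Nup98, 29 times in Nup153, 24 times in Pom121 and 20 times in Ranbp2. The other 5 FG nucleoporins held 5 to 11 such pairs, and the 21 others held 0 to 5. Stretches of 10 codons that do not cross an exon junction are shown as examples. Each is the first such stretch of that gene with the most pairs, with the pairs in capitals.
Nup214 (cytoplasmic side, chr2:32042455-32042484, plus strand): TTTGGAgggTTTGGCagctcatccTTCGGG
Nup54 (central FG channel, chr5:92430901-92430930, minus strand): aaaggtTTTGGCTTTGGTactggtTTTGGC
Nup98 (central FG channel, chr7:102195828-102195857, minus strand): tttaacaaatcaTTTGGAacccccTTTGGG
Nup93 (inner ring, chr8:94227677-94227706, plus strand): atggatactgaggggTTTGGTgagctcctt
Nup37 (outer ring, chr10:88148224-88148253, plus strand): atgaagcaagatgctacaagaaatgctgcg
The first 2 hold 3 pairs each, Nup98 holds 2, Nup93 holds 1, and Nup37 has none in its whole coding sequence, so that its first 10 codons are shown. Such stretches do not separate the classes. Those of the FG nucleoporins Nup62 and Nup50 hold 1 pair, and those of Rae1 and Ndc1, outside the class, hold 2. The transcript used for Nupl1 is annotated as a target of nonsense-mediated decay.

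Because most nucleoporins moved together across the libraries, their promoters were searched on both strands for 6 motifs of factors known for housekeeping and cell cycle genes. RefSeq promoters (GRCm38.p6, windows around the annotated start) were matched for 27 of the 31 genes. The NRF1 motif, whose 10 letters are the capitals in the first 3 promoter sequences below and read the same on both strands, was in a promoter of 3 of the 27 genes (11.1%), of 1.47% of all 17224 genes with a promoter, and in 0.971% of all 32851 promoters. The ETS motif CCGGAAG was in 8 of the 27 (29.6%) against 12.8% of all genes and 8.86% of all promoters. The YY1 motif AAGATGGC was in 4 (14.8%) against 3.63% and 2.75%. CCAAT was in 10 (37.0%) against 42.0% and 37.4%, the CHR motifs TTTGAA or TTCGAA in 6 (22.2%) against 19.4% and 19.2%, and the E2F motifs TTTGGCGC or TTTCGCGC in 0 against 1.23% and 0.813%. No searched motif contains another, and a match describes letters only. The NRF1 matches of 3 genes and the ETS matches of Aaas and Sec13 are shown with the motif in capitals.
Nup107 (chr10:117792751-117792780, minus strand): gacgaaagtcGCGCATGCGCcgagcgggaa
Nup62 (chr7:44816058-44816087, plus strand): ataagacaatGCGCATGCGCaacaggttgt
Nup50 (chr15:84923313-84923342, plus strand): aggctccgacGCGCATGCGCagtagctgga
Aaas (chr15:102350787-102350816, minus strand): gccaggaagtcCCGGAAGtccgtcccgaaa
Sec13 (chr6:113740731-113740760, minus strand): tgtgttgctgaCCGGAAGatcctgggtgac
The motifs start at positions -65, -20, -105, -46 and -68 from the gene's start, in the order shown, and Nup50 held another NRF1 match at -167.

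Transcript levels per length differed widely between nucleoporins. Levels of single genes are compared with each other only as CPM per kilobase of transcript, given as mean ± SD of the 8 wild types. For this, CPM, the TMM-scaled count relative to library size, was divided by the length of the longest coding transcript. Sums over subcomplexes are given below with and without this scaling. Sec13, an outer ring subunit that also belongs to the COPII coat of secretory vesicles, was highest at 53.6 ± 4.49 CPM per kilobase (SD, n = 8). Nup88, the cytoplasmic partner of Nup214, followed at 44.2 ± 3.13, then Rae1, an mRNA export factor bound to Nup98, at 37.3 ± 3.11 and Nup62, the core of the central channel, at 33.5 ± 3.07. Ndc1, a transmembrane nucleoporin, was lowest at 4.48 ± 0.752, preceded by Nupl2, a cytoplasmic FG nucleoporin that binds Gle1, at 5.02 ± 0.462 and Nup155, an inner ring scaffold, at 6.32 ± 0.942. Among the 30 pairs of neighbours in this order, the wild-type ranges overlapped in all but 1, Nup62 (29.9 to 38.7) and the next gene Tpr (22.0 to 27.8), so most near neighbours cannot be ordered by their ranges, although Sec13 exceeded Nup88 in each of the 8 libraries. In 10 of the 31, another gene of the table overlaps the locus, among them Pcmt1 at Nup43, Nsun5 at Pom121, Atf5 at Nup62, Fam78a at Nup214, Rabep1 at Nup88 and Prg4 at Tpr, and the strand setting of the counting is not stated, so their counts are less certain. Within the outer ring the range ran from Sec13 down to Nup160 at 6.76 ± 1.06 CPM per kilobase.

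**Figure D1:**
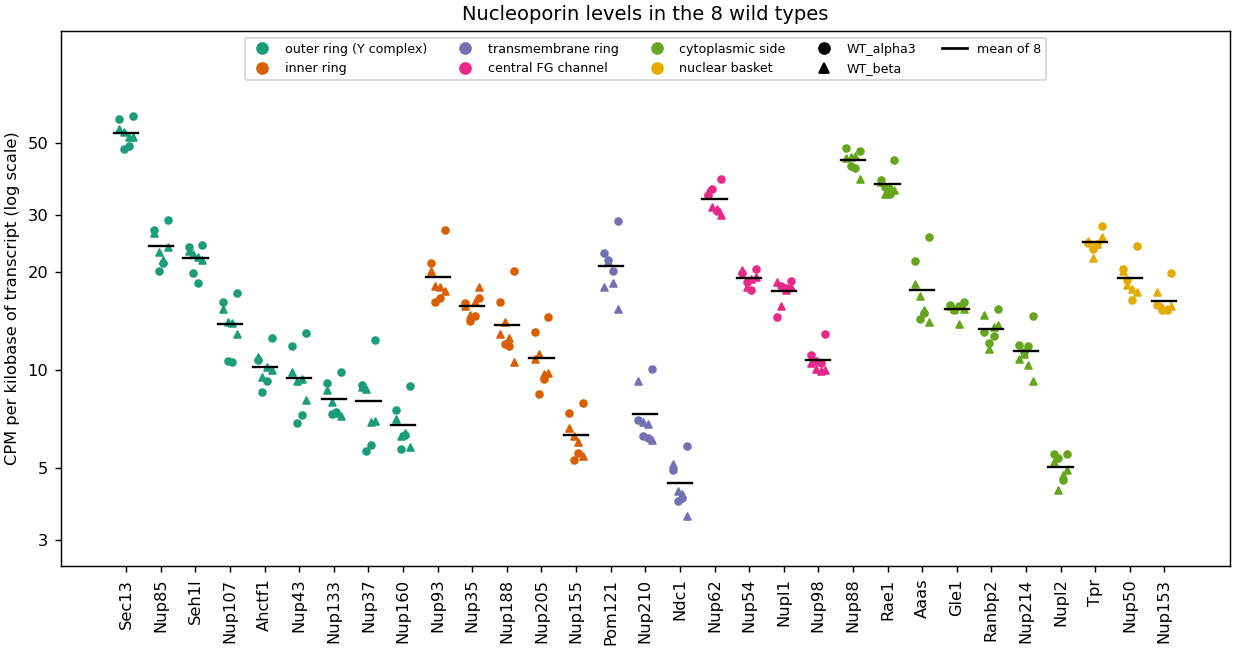
Level of each nucleoporin in the 8 wild types, as CPM per kilobase of transcript on a log axis, grouped and coloured by subcomplex; circles are WT_alpha3, triangles WT_beta, and the line is the mean of 8. Sec13, Nup88, Rae1 and Nup62 have means between 33.5 and 53.6, and Ndc1, Nupl2, Nup155 and Nup160 lie below 7.

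The subcomplexes took unequal shares of the nucleoporin sum. The 31 genes together summed to 2042 ± 206 CPM (SD, n = 8) in the wild types, 2125 ± 197 in KO_alpha3 (SD, n = 4) and 1954 ± 57.9 in KO_beta (SD, n = 4). Not scaled by length, the cytoplasmic side held 23.9 ± 0.6003% of that sum in the wild types, the outer ring 21.6 ± 0.954%, the basket 18.4 ± 0.712%, the inner ring 13.6 ± 0.993%, the central channel 13.3 ± 0.779% and the transmembrane ring 9.20 ± 0.801%. Per kilobase of transcript, the outer ring had the highest share, 28.9 ± 1.24%, and the transmembrane ring the lowest, 6.03 ± 0.562%. The basket's share was then 11.2%. These shares are sums and depend on the number of genes, which is 9 of 31 for the outer ring and 3 for the transmembrane ring. Sec13 alone gave 53.6 of the 156 CPM per kilobase of the outer ring. Across all 16 libraries the outer ring share stayed between 19.9% and 22.9% of the summed CPM, lowest in WT_alpha3 54 and highest in KO_alpha3 42. The 10 FG nucleoporins together held 39.1 ± 1.33% of the summed CPM and 30.96 ± 1.34% per kilobase. The transmembrane share had the widest range in proportion, 7.66% to 10.4%. It was 8.35% to 9.07% in KO_alpha3 and 9.22% to 10.4% in WT_alpha3, which did not overlap, and 8.45% to 9.71% in KO_beta and 7.66% to 9.59% in WT_beta, which did. The FG share was 38.9% to 40.0% in KO_beta and 38.4% to 38.7% in WT_beta, without overlap, and inside the WT_alpha3 range of 37.4% to 41.7%. Per kilobase the FG shares of KO_beta and WT_beta overlapped, at 30.3% to 32.1% and 30.2% to 30.6%. The outer ring share of the summed CPM did not overlap either, at 20.8% to 21.92% in KO_beta and 21.94% to 22.4% in WT_beta. KO_beta and WT_beta also differ in Y-linked reads, as given below. These contrasts were picked after the values were seen and were not tested. These shares describe RNA, and the numbers of subunits in pores were not measured.

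The level of most nucleoporins followed the level of cell cycle genes from library to library. The mean log2 CPM of 34 cell cycle genes, none of them a nucleoporin, ran from 4.50 in WT_alpha3 55 to 6.37 in WT_alpha3 79. Within groups, 25 of the 31 nucleoporins rose with this mean (edgeR's quasi-likelihood test, Benjamini-Hochberg adjusted p under 0.05, 4 groups as a factor), and none fell. Among all 15607 genes tested, 22.4% rose by the same rule and 50.2% passed in either direction, so passing is common in itself. The median slope of the nucleoporins was 0.21 on the log2 scale per log2 unit of the mean, and that of all genes was -0.0072. DESeq2 and limma-voom also gave 25 each, where 24.8% and 22% of all genes rose. The heatmap of all libraries shows this as a change of colour from left to right.

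**Figure D2:**
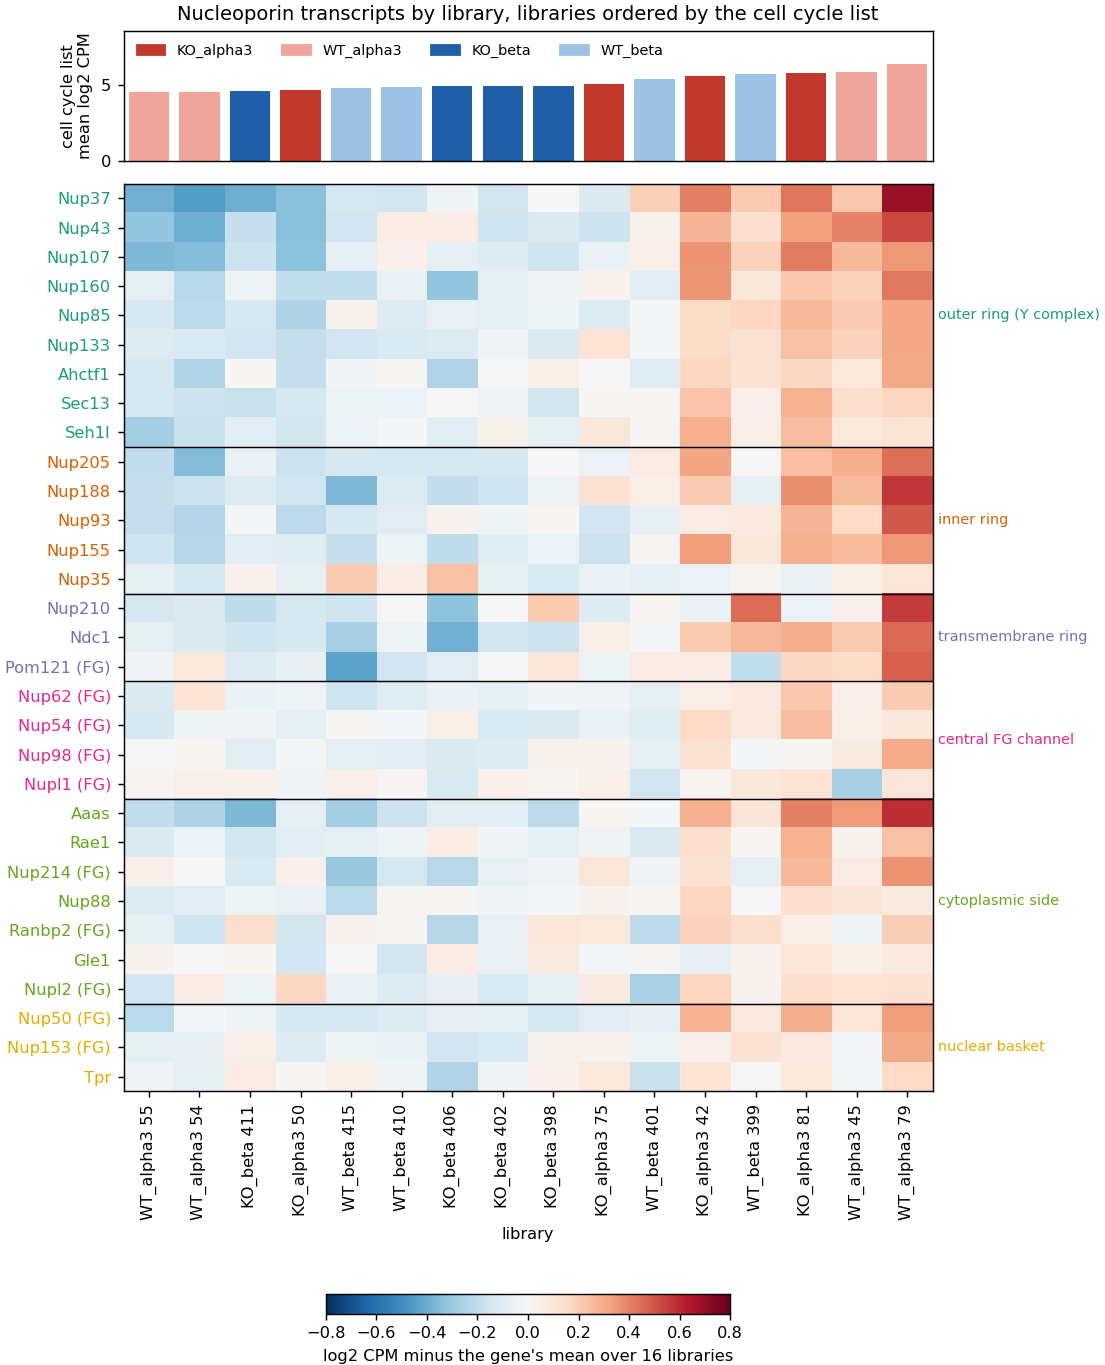
Log2 CPM of each nucleoporin minus its own mean over 16 libraries (colour), with libraries ordered by the mean log2 CPM of 34 cell cycle genes (bars, coloured by group) and genes by subcomplex and slope. The outer and inner rings turn from blue to red toward WT_alpha3 79, the library with the highest cell cycle mean (6.37), while Nupl1, Gle1, Nup35 and Tpr change little.

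All 9 genes grouped in the outer ring rose with the cell cycle mean, with slopes from 0.21 to 0.59 (edgeR adjusted p between 3.92e-06 and 0.00134). They included the 2 steepest of all nucleoporins. Nup37, a small propeller-shaped subunit, had the steepest slope, 0.59 ± 0.06 (SE). Its CPM values were 12.9, 7.77, 9.06 and 13.2 in KO_alpha3, 11.5, 7.20, 7.52 and 15.8 in WT_alpha3, 9.83, 8.84, 9.58 and 7.49 in KO_beta and 11.3, 11.2, 8.85 and 8.88 in WT_beta. It was highest in WT_alpha3 79 and lowest in WT_alpha3 54, 2 wild types of the same line, and all 4 groups overlapped. Nup43, another propeller subunit, with a slope of 0.48 ± 0.07, had CPM values of 13.99, 9.19, 10.3 and 14.6 in KO_alpha3, 15.3, 8.84, 9.33 and 16.7 in WT_alpha3, 10.7, 10.4, 12.1 and 10.2 in KO_beta and 12.6, 11.9, 12.1 and 10.4 in WT_beta. It was highest in WT_alpha3 79 and lowest in WT_alpha3 54, as Nup37 was. Nup107, the subunit that gave the complex its older name, had a slope of 0.42 ± 0.05 and CPM values of 54.1, 33.6, 40.4 and 56.2 in KO_alpha3, 50.3, 33.1, 32.9 and 53.6 in WT_alpha3, 37.8, 39.3, 40.0 and 37.4 in KO_beta and 47.9, 43.8, 43.4 and 40.1 in WT_beta. The 2 lowest were WT_alpha3 54 and 55 and the 2 highest KO_alpha3 81 and 42.

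Nup85, in the short arm of the Y, rose with a slope of 0.29 ± 0.04. Its CPM values were 57.8, 44.0, 48.4 and 62.7 in KO_alpha3, 60.0, 44.9, 47.7 and 64.7 in WT_alpha3, 51.0, 49.5, 50.1 and 47.8 in KO_beta and 58.9, 51.6, 48.5 and 53.5 in WT_beta, highest in WT_alpha3 79 and lowest in KO_alpha3 50. Nup133, at the end of the stalk, rose with a slope of 0.25 ± 0.03 and CPM values of 51.6, 40.8, 50.0 and 54.8 in KO_alpha3, 52.9, 42.6, 43.1 and 57.5 in WT_alpha3, 42.9, 45.6, 43.0 and 41.8 in KO_beta and 50.6, 46.3, 42.8 and 41.8 in WT_beta. Nup160, the other short arm subunit, rose at 0.30 ± 0.06 with CPM values of 48.4, 33.0, 38.8 and 44.0 in KO_alpha3, 43.0, 32.5, 35.9 and 50.7 in WT_alpha3, 37.3, 36.0, 30.4 and 36.8 in KO_beta and 40.2, 35.7, 36.4 and 33.0 in WT_beta. For both, WT_alpha3 79 was the highest library and all 4 groups overlapped. Sec13, whose slope was 0.21 ± 0.04, lay at 85.0, 66.5, 73.1 and 88.2 in KO_alpha3, 79.8, 64.5, 66.1 and 81.8 in WT_alpha3, 65.5, 71.1, 72.5 and 64.2 in KO_beta and 74.6, 73.0, 70.3 and 70.4 in WT_beta. Here KO_alpha3 81 and 42 were highest, and the groups again overlapped. Ahctf1, which encodes ELYS and brings the Y complex to chromatin after mitosis, ran from 72.9 to 107 CPM over the 16 libraries with a slope of 0.23 ± 0.05.

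In the inner ring, 4 of 5 rose, with slopes between 0.31 and 0.36 (edgeR adjusted p between 1.26e-05 and 9.84e-05). Nup205 and Nup188 are large scaffold proteins of related structure. Nup205, with a slope of 0.36 ± 0.05, had CPM values of 85.6, 61.0, 66.6 and 81.5 in KO_alpha3, 84.2, 54.2, 60.0 and 93.5 in WT_alpha3, 68.7, 63.1, 62.5 and 66.2 in KO_beta and 69.1, 71.9, 62.5 and 63.0 in WT_beta. Nup188, also at 0.36 ± 0.05, had CPM values of 89.2, 69.8, 83.8 and 100.1 in KO_alpha3, 92.4, 68.8, 67.8 and 115 in WT_alpha3, 75.4, 69.3, 67.7 and 71.8 in KO_beta and 73.8, 80.4, 71.8 and 60.3 in WT_beta. Both were highest in WT_alpha3 79, and Nup188 was lowest in WT_beta 415. Nup93, which anchors the inner ring and the channel nucleoporins, had a slope of 0.34 ± 0.04 and CPM values of 58.5, 48.3, 50.3 and 67.5 in KO_alpha3, 62.4, 47.5, 48.9 and 78.9 in WT_alpha3, 56.5, 54.5, 56.9 and 55.4 in KO_beta and 58.98, 53.2, 52.6 and 51.2 in WT_beta. Its KO_beta libraries lay within a narrow band inside the range of every other group. Nup155 had a slope of 0.31 ± 0.05 and CPM values of 61.2, 45.5, 43.1 and 59.2 in KO_alpha3, 57.9, 41.5, 43.4 and 61.9 in WT_alpha3, 47.0, 45.4, 42.2 and 45.9 in KO_beta and 51.8, 49.2, 47.2 and 42.7 in WT_beta, again highest in WT_alpha3 79. Nup35, which touches the membrane, did not pass: its slope was 0.05 ± 0.06 (edgeR adjusted p = 0.531), and it ran from 22.1 to 28.5 CPM.

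In the transmembrane ring all 3 rose: Nup210 at 0.31 ± 0.07, Ndc1 at 0.31 ± 0.05 and Pom121 at 0.21 ± 0.05 (edgeR adjusted p between 0.000255 and 0.00523). Nup210, a glycoprotein of the ring, ran from 38.4 CPM in KO_beta 406 to 70.8 CPM in WT_alpha3 79. Ndc1 and Pom121 are given by library with the comparisons between groups, where their p-values were lowest.

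The central channel had smaller slopes, and 3 of its 4 genes passed. Nup62 rose at 0.13 ± 0.04, Nup54, its partner in the channel, at 0.12 ± 0.04 and Nup98, which carries glycine-leucine-FG repeats, at 0.11 ± 0.03 (edgeR adjusted p between 0.0129 and 0.0323). Nup62 had CPM values of 94.3, 88.4, 89.2 and 106 in KO_alpha3, 93.7, 98.2, 84.0 and 105 in WT_alpha3, 89.7, 86.4, 87.8 and 87.6 in KO_beta and 96.1, 86.4, 85.0 and 81.3 in WT_beta, and its highest and lowest libraries were KO_alpha3 81 and WT_beta 415. Nup54 ran from 41.4 to 53.6 CPM. Nupl1, which encodes the other partner of Nup62 and Nup54, had a slope of -0.0012 ± 0.053 (edgeR adjusted p = 0.986) and ran from 52.6 CPM in WT_alpha3 45 to 68.3 CPM in KO_alpha3 81, and its slope turned positive under several other settings.

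On the cytoplasmic side 4 of 7 rose. Aaas, which encodes ALADIN, the protein lost in triple A syndrome, had the lowest p of all nucleoporins, with a slope of 0.43 ± 0.04 (edgeR adjusted p = 8.74e-07). Its CPM values were 37.6, 29.3, 31.2 and 40.9 in KO_alpha3, 39.2, 26.0, 27.1 and 46.6 in WT_alpha3, 26.8, 29.1, 29.1 and 24.1 in KO_beta and 33.3, 30.6, 27.6 and 25.5 in WT_beta. WT_alpha3 79, KO_alpha3 81 and WT_alpha3 45 were highest, and every KO_alpha3 library lay above every KO_beta library, the nearest at 29.3 and 29.1 CPM. In this way 4 nucleoporins (Aaas, Ndc1, Nup214 and Nupl2) and 2.07% of all genes were separated. Rae1 rose at 0.17 ± 0.04, Nup214, the FG nucleoporin of the cytoplasmic filament, at 0.16 ± 0.04 and Nup88 at 0.13 ± 0.03. Rae1 ran from 59.1 to 79.3 CPM. Ranbp2, the long filament protein that also attaches SUMO, was at 0.12 ± 0.06, Gle1, which helps the helicase Ddx19 release mRNA, at 0.07 ± 0.04 and Nupl2 at 0.06 ± 0.05, and none of these 3 passed (edgeR adjusted p between 0.116 and 0.339). Ranbp2 ran from 110.5 to 148 CPM.

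In the basket, Nup50, which helps release cargo from importin α, rose at 0.25 ± 0.05 and Nup153, which docks importins, at 0.15 ± 0.04 (edgeR adjusted p = 0.000372 and 0.011). Nup50 ran from 78.5 CPM in WT_alpha3 55 to 115 CPM in WT_alpha3 79. Nup153 had CPM values of 101, 91.4, 99.99 and 104 in KO_alpha3, 96.9, 93.6, 93.5 and 121 in WT_alpha3, 100.4, 90.3, 88.1 and 102 in KO_beta and 106, 95.8, 94.4 and 95.8 in WT_beta, and WT_alpha3 79 was the highest of the 16. Tpr, the coiled-coil backbone of the basket, did not pass, at 0.06 ± 0.05 (edgeR adjusted p = 0.35). Its CPM values were 199.8, 187, 196 and 196 in KO_alpha3, 183, 175, 181 and 207 in WT_alpha3, 191, 182, 157 and 193 in KO_beta and 185, 164, 182 and 191 in WT_beta, with KO_beta 406 lowest.

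Of the 10 FG nucleoporins 7 rose, with a median slope of 0.13 over all 10, and of the 21 others 18 rose, with a median of 0.30. The difference between the classes was not tested. The plot of slopes shows the 9 FG nucleoporins other than Nup50 at or below 0.21, and the 13 steepest slopes all belong to genes outside the FG class.

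**Figure D3:**
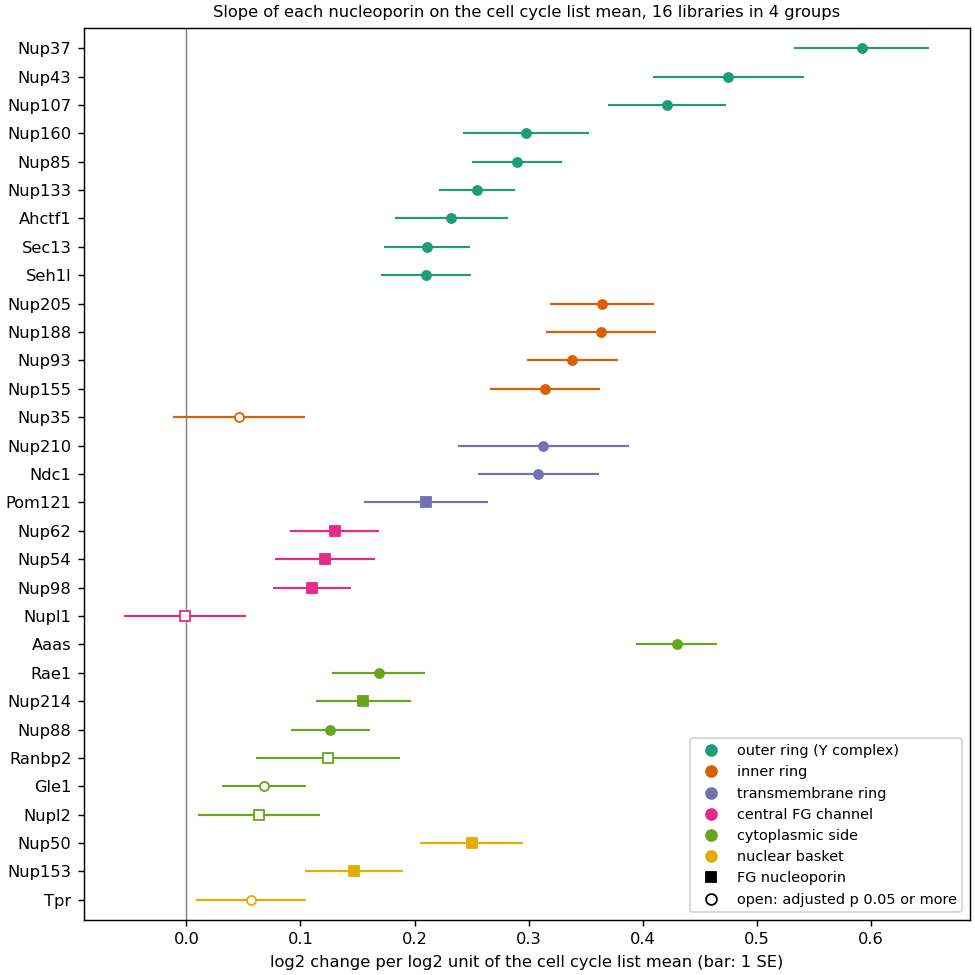
Slope of each nucleoporin on the mean of 34 cell cycle genes, as log2 change per log2 unit with a bar of 1 SE, from a fit to 16 libraries in 4 groups; colour gives the subcomplex, squares are FG nucleoporins and open symbols did not pass. Slopes run from -0.0012 (Nupl1) to 0.59 (Nup37), with the outer and inner rings mostly to the right of the channel genes.

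**Figure D4:**
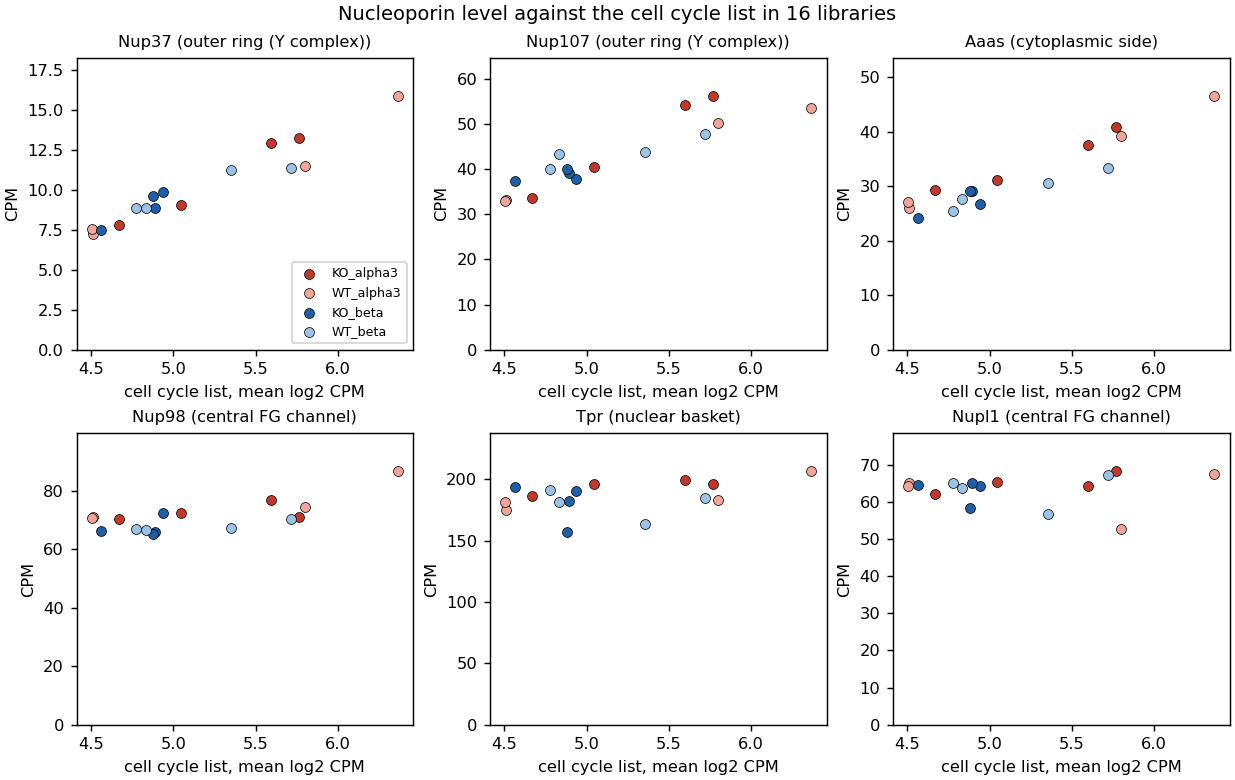
CPM of 6 nucleoporins against the mean log2 CPM of 34 cell cycle genes, 1 point per library, coloured by group, with each vertical axis starting at 0. Nup37 climbs from 7.20 to 15.8 CPM, and Aaas and Nup107 also climb, while Nup98 rises little and Tpr and Nupl1 stay nearly level.

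Markers of cell types moved with the same cell cycle mean. Within groups, 5 of 9 progenitor markers, 7 of 8 erythroid markers, 5 of 11 spinal cord markers and 7 of 9 sympathetic markers rose with it, while 1 sympathetic, 3 of 7 glial and 7 of 13 sensory neuron markers fell and 2 sensory neuron markers rose. The summed sensory neuron markers were 4031 to 6707 CPM in KO_alpha3, 2830 to 7072 in WT_alpha3, 5770 to 6799 in KO_beta and 4198 to 5674 in WT_beta. The summed erythroid markers were 704 to 2807 CPM in KO_alpha3, 499 to 10359 in WT_alpha3, 399 to 3415 in KO_beta and 379 to 2295 in WT_beta, with Hba-a1 and Hba-a2 at 0. WT_alpha3 79 had both the lowest sensory neuron and the highest erythroid sum. With the sensory neuron mean as a second covariate, 0 nucleoporins passed in edgeR's test (9 higher at an unadjusted p under 0.05, median slope 0.18), where 1.82% of all genes rose and 8.3% were higher at an unadjusted p under 0.05. With the erythroid mean 17 passed, and with the sympathetic mean 21, where 16.4% of all genes rose in each. In bulk tissue, more cells of a dividing type and more RNA per cell cannot be told apart.

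Without the 4 marker-high libraries, 21 nucleoporins still passed (edgeR, 18% of all genes higher), and the median slope was 0.35. Nup210, Nup98, Nup214 and Nup153 no longer passed (edgeR adjusted p = 0.321, 0.27, 0.0873 and 0.238). The slope of Nup37 was then 0.78 ± 0.12 and that of Nup107 0.66 ± 0.09. In the 8 wild types alone 22 passed, where 17.6% of all genes rose.

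Part of the other nuclear transport genes rose with the same mean, where 22.4% of all genes rose and 27.8% fell. Of 23 transport receptors 11 rose and 3 fell with the cell cycle mean, with a list median of 0.11. The 4 with the lowest p were Kpna2, an importin α, at 0.43 ± 0.05, Tnpo2, a transportin, which fell at -0.30 ± 0.05, the importin Ipo5 at 0.21 ± 0.03, and Cse1l, which returns importin α to the cytoplasm, at 0.24 ± 0.04. Of 7 genes of the Ran system, which gives transport its direction, 4 rose: Ran at 0.45 ± 0.04, its exchange factor Rcc1 at 0.51 ± 0.05, Ranbp1 at 0.41 ± 0.05 and Rangrf at 0.25 ± 0.06. Of 15 mRNA export genes 8 rose and none fell, led by the helicase gene Ddx19a (0.33 ± 0.03), Nxt1 (0.42 ± 0.06), Ddx39b (0.29 ± 0.05) and Thoc5 (0.31 ± 0.06). Of 18 lamina and envelope genes tested 9 rose and 3 fell, with Tmpo at 0.64 ± 0.06, Lmnb1, a B-type lamin, at 0.58 ± 0.06, the lamin B receptor Lbr at 0.72 ± 0.08 and Syne1, a linker to the cytoskeleton, at -0.64 ± 0.09. All 16 named genes passed in edgeR's test (Benjamini-Hochberg adjusted p at or below 0.00479).

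Loss of importin α3 changed no nucleoporin past the threshold. In KO_alpha3 against the 8 wild types, 0 of 31 passed (edgeR's quasi-likelihood test), and 0.00639% of 15641 genes did, Kpna4 alone. At an unadjusted p under 0.05 there was 1, Nupl2, where 10.8% of all genes reached that level, and DESeq2 and limma-voom also called 0 (0.818% and 0.00639% of all genes) and had 1 each at that level (12.3% and 9.55%). Log2 fold changes ran from -0.19 ± 0.14 (Nup210) to 0.16 ± 0.08 (Nupl2), with 24 of 31 positive and a median of 0.063, against 48.6% positive and a median of -0.0059 for all genes. The outer ring had 7 of 9 positive, the inner ring 3 of 5, the transmembrane ring 2 of 3, the channel 4 of 4, the cytoplasmic side 6 of 7 and the basket 2 of 3.

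The 3 lowest p-values in KO_alpha3 belonged to Nupl2, Seh1l and Nup88. Nupl2 had CPM values of 16.8, 16.7, 15.7 and 16.4 in KO_alpha3, 16.1, 15.62, 13.4 and 16.1 in WT_alpha3, 14.2, 13.7, 14.2 and 14.5 in KO_beta and 15.2, 12.4, 13.8 and 14.4 in WT_beta, with a log2 fold change of 0.16 ± 0.08 (edgeR adjusted p = 0.454). Every KO_alpha3 library lay above every WT_beta library, as for 3.27% of all genes, but not above WT_alpha3 45 and 79. Seh1l, an outer ring subunit that also serves in nutrient signalling, had CPM values of 97.0, 71.9, 85.0 and 94.3 in KO_alpha3, 84.5, 70.4, 65.8 and 85.9 in WT_alpha3, 75.8, 81.6, 75.0 and 75.2 in KO_beta and 82.2, 80.3, 78.7 and 77.0 in WT_beta and a log2 fold change of 0.16 ± 0.08 (edgeR adjusted p = 0.523). KO_alpha3 42 and 81 were the highest of all libraries and KO_alpha3 50 among the 3 lowest. Nup88 had CPM values of 124, 106, 112 and 121 in KO_alpha3, 118, 104, 102 and 116 in WT_alpha3, 109, 109, 111 and 107 in KO_beta and 109.95, 111, 112 and 94.9 in WT_beta and a log2 fold change of 0.09 ± 0.06 (edgeR adjusted p = 0.607), and its groups overlapped. No nucleoporin in KO_alpha3 lay wholly above or wholly below all 8 wild types, as 0.198% and 0.416% of all genes did.

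The median in KO_alpha3 moved with single libraries. It was 0.012 without KO_alpha3 42 and 0.15 without KO_alpha3 50, the knockouts with cell cycle means of 5.59 and 4.67. Y-linked reads also differed, at 0.320 CPM in KO_alpha3 42, 0.0418 in 81, 133 in 75 and 148 in 50. Without KO_alpha3 50 124 genes were called instead of 1 (0.785% of all genes), still with 0 nucleoporins in edgeR's test. Against WT_alpha3 alone the median was 0.014, with 19 of 31 positive. Without the 4 marker-high libraries, still 0 passed in edgeR's test (0.00637% of all genes). Of the nucleoporins 14 were then higher at an unadjusted p under 0.05, where 13.1% of all genes were. The median was 0.19 with 30 positive. The 4 are wild types with cell cycle means of 5.35 to 6.37, so leaving them out also lowers the wild-type cell cycle level. The summed skeletal muscle markers were 26.0 to 223 CPM in KO_alpha3, 86.3 to 453 in WT_alpha3 and 151 to 964 in WT_beta, and the spinal cord markers 4.02 to 12.2, 9.96 to 83.7 and 8.13 to 91.1, with all 12 of each list detected. No marker of skeletal muscle, spinal cord, sympathetic neurons, erythroid cells, liver, epidermis or macrophages had a positive log2 fold change in KO_alpha3, and 0 of them passed in edgeR's test. At an unadjusted p under 0.05 were 10 of 12 muscle, 8 of 11 spinal cord, 4 of 9 sympathetic, 0 of 8 erythroid, 7 of 8 liver, 7 of 8 epidermis and 6 of 8 macrophage markers. Of all genes 6.63% were lower at that level. The summed glia and Schwann precursor markers were 1149 to 1313 CPM in KO_alpha3, above all wild types (812 to 1132), and the progenitor markers 407 to 834 CPM against 391 to 773 in WT_alpha3 and 366 to 496 in WT_beta. In these lists 5 of 7 and 6 of 9 log2 fold changes were positive, with 0 passing in edgeR's test. At an unadjusted p under 0.05 were 3 and 2, where 10.8% of all genes reached that level in either direction. The part of these markers in the nucleoporin values was not tested beyond this.

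**Figure D5:**
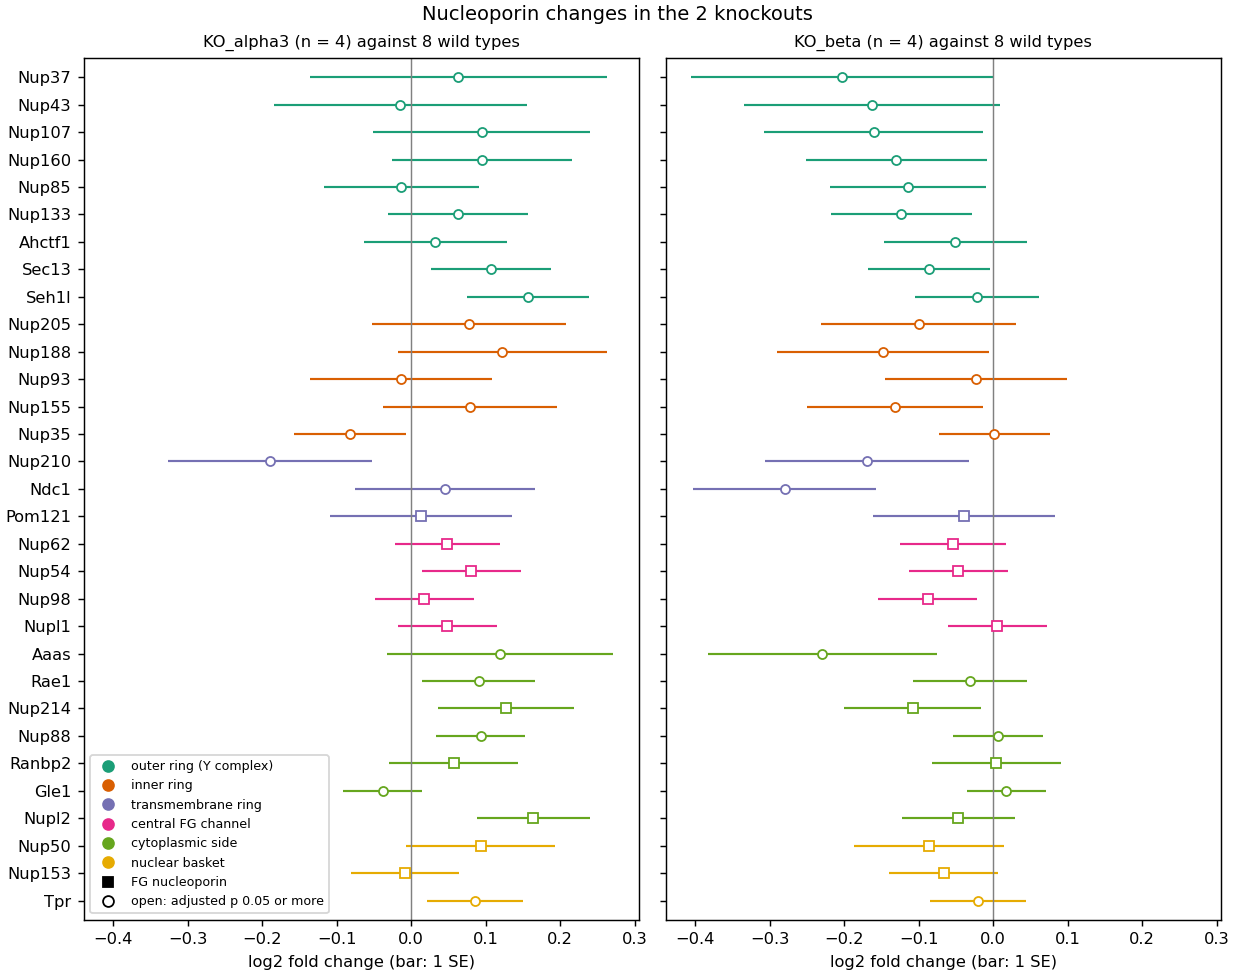
Log2 fold change of each nucleoporin in KO_alpha3 (left) and KO_beta (right), 4 libraries each, against the same 8 wild types, with bars of 1 SE; colours give the subcomplex, squares are FG nucleoporins, and all symbols are open because none passed. In KO_alpha3 24 of 31 lie above 0 and in KO_beta 5 of 31, and both panels share their control libraries.

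Deletion of the importin β1 3′ untranslated region also changed no nucleoporin past the threshold. In KO_beta against the 8 wild types 0 of 31 passed in edgeR's test, where 0% of 15641 genes passed, and DESeq2 and limma-voom called 0 nucleoporins too (0.00639% and 0% of all genes). At an unadjusted p under 0.05 there was 1 in each of the 3 tools, which for edgeR was Ndc1, where 2.23% of all genes reached that level (3.16% in DESeq2 and 1.7% in limma-voom). Log2 fold changes ran from -0.28 ± 0.12 (Ndc1) to 0.02 ± 0.05 (Gle1), with 5 of 31 positive (49.2% of all genes were) and a median of -0.086 (-0.0026 for all genes). The outer ring had 0 of 9 positive, the transmembrane ring and the basket 0 of 3 each, the inner ring 1 of 5, the channel 1 of 4 and the cytoplasmic side 3 of 7. The number positive was 0 with upper quartile or library size scaling, 1 with DESeq2's size factors and 10 against WT_beta alone. Y-linked reads were at 132 to 142 CPM in KO_beta and 0 to 1.149 CPM in WT_beta, so deletion and Y-linked level cannot be told apart within this line. With the Y-linked level as a covariate over all groups 7 of 31 were positive, the median was -0.064 and 0 passed in edgeR's test (0 at an unadjusted p under 0.05).

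Ndc1, which anchors the pore in the membrane and binds ALADIN, had CPM values of 22.7, 17.9, 20.3 and 23.9 in KO_alpha3, 22.6, 18.1, 18.6 and 26.8 in WT_alpha3, 17.4, 17.7, 15.01 and 17.5 in KO_beta and 23.5, 19.4, 19.0 and 16.3 in WT_beta. Its KO_beta libraries lay below all KO_alpha3 libraries, the nearest at 17.7 and 17.9 CPM, and below all WT_alpha3 libraries, as 1.29% of all genes did, and overlapped with WT_beta, in which 415 was low (log2 fold change -0.28 ± 0.12, edgeR adjusted p = 0.932). Aaas, whose values are given above, was second, at -0.23 ± 0.15, and Nup98 came next, at -0.09 ± 0.07 (both edgeR adjusted p = 0.932). Nup98 had CPM values of 76.8, 70.2, 72.2 and 71.1 in KO_alpha3, 74.4, 71.2, 70.6 and 86.7 in WT_alpha3, 72.5, 65.9, 65.1 and 66.3 in KO_beta and 70.3, 67.4, 66.4 and 66.9 in WT_beta. KO_beta 398 was inside the range of WT_alpha3 and the other 3 KO_beta libraries were below it. Nup107 was the only nucleoporin with every KO_beta library below every WT_beta library, as 1.17% of all genes were (0 lay above, against 2.75%), with the same difference in Y-linked reads, and its KO_beta values were inside the range of WT_alpha3. Against all 8 wild types no nucleoporin lay wholly above or below, as 0.0703% and 0.0639% of all genes did.

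Beside these values the cell cycle mean was 4.56 to 4.94 in KO_beta and 4.50 to 6.37 in the 8 wild types. With this mean as a covariate the sign of the median turned, to a small value of 0.014. Of 31 nucleoporins 23 were positive, where 48.4% of all genes were. In edgeR's test 0 passed (1 at an unadjusted p under 0.05, as 1.87% of all genes were). Without the 4 marker-high libraries the sign of the median turned too, with 24 positive, a median of 0.037 and 0 passing. At an unadjusted p under 0.05 there were then 0, where 1.13% of all genes were. In KO_alpha3 the covariate left 24 positive and a median of 0.056, with 0 passing and 4 at an unadjusted p under 0.05 (18% of all genes).

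Comparing WT_beta with WT_alpha3 asks how far the control groups differ. Y-linked reads were at 0 to 1.149 CPM in WT_beta and 105 to 129 CPM in WT_alpha3. Line and Y-linked level therefore cannot be told apart in this comparison. In WT_beta against WT_alpha3 0 nucleoporins passed in edgeR's test (0.0192% of all genes), and 0 in DESeq2 and limma-voom (0.205% and 0.0192%). At an unadjusted p under 0.05 each tool had 3, where 5.27% of all genes had it in edgeR, 5.79% in DESeq2 and 4.53% in limma-voom, and edgeR's 3 were FG nucleoporins: Pom121, Nup214 and Nup98, at -0.35 ± 0.11, -0.26 ± 0.09 and -0.16 ± 0.07 (edgeR adjusted p = 0.823, 0.823 and 0.912). In all, 5 of 31 were positive, with a median of -0.086 (44.1% positive and a median of -0.021 for all genes). Pom121, a membrane-anchored FG nucleoporin, had CPM values of 119.8, 109.8, 112 and 129 in KO_alpha3, 128, 122, 113 and 160.4 in WT_alpha3, 123, 115, 108 and 107 in KO_beta and 100.4, 120.2, 104 and 85.7 in WT_beta. WT_alpha3 79 was highest and WT_beta 415 lowest, and the wild-type groups overlapped. Without the 4 marker-high libraries 23 of 31 were positive, and the median turned to 0.043. Without WT_alpha3 79 alone it turned to 0.019, with 19 positive. The 3 at an unadjusted p became 0 to 6 when 1 library was left out, with 0 without WT_alpha3 79 or WT_beta 415, 5 without WT_alpha3 54 and 6 without WT_alpha3 55.

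Nup214 separated the lines in full. Its CPM values were 81.7, 77.7, 80.5 and 90.1 in KO_alpha3, 79.0, 75.2, 78.2 and 96.9 in WT_alpha3, 73.9, 72.3, 64.6 and 69.4 in KO_beta and 71.6, 73.8, 68.4 and 61.2 in WT_beta. All 8 libraries of the β1 line, knockout and wild type, lay below all 8 of the α3 line, with ranges of 61.2 to 73.9 and 75.2 to 96.9 CPM. Of all genes 0.102% lay below in this way and 0.102% above, and Nup214 was the only nucleoporin among them, singled out after its values were seen. Between the wild types alone, Nup98 and Nup214 lay wholly lower in WT_beta, as 1.53% of all genes did, and none lay wholly higher (1.18%). Y-linked reads were at 0 to 1.149 CPM in WT_beta and in KO_alpha3 42 and 81 and at 105 to 148 CPM in the other libraries, so Nup214 was high and low at both levels. The line and any difference in handling between the lines cannot be told apart.

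The effects of the 2 knockouts, each against its own wild types so that no library is shared, did not differ past the threshold for any nucleoporin. The KO_beta effect here is that within its line, where it cannot be told apart from the Y-linked level. In the difference, KO_alpha3 effect minus KO_beta effect, 0 of 31 passed in edgeR's test (0.00639% of all genes), 0 in DESeq2 and limma-voom (0.0384% and 0.00639%), and 0 had an unadjusted p under 0.05 in any of the 3 tools, where 1.22%, 1.67% and 1.37% of all genes had in edgeR, DESeq2 and limma-voom. Log2 differences ran from -0.30 ± 0.16 (Pom121) to 0.30 ± 0.25 (Nup107), with 23 of 31 positive and a median of 0.061 (44.5% positive and a median of -0.026 for all genes). All 9 outer ring genes and all 3 basket genes were positive. With the cell cycle mean as a covariate 12 of 31 were positive and the median was -0.018. When 1 library was left out, the median ran from -0.011 (without WT_alpha3 54) to 0.20 (without WT_alpha3 79), with 15 to 29 positive. The lowest p-values were those of Pom121, Seh1l (0.23 ± 0.14) and Gle1 (-0.12 ± 0.09), all with an edgeR adjusted p of 0.996. Gle1 had CPM values of 59.3, 55.7, 61.2 and 66.2 in KO_alpha3, 64.0, 61.9, 63.2 and 65.4 in WT_alpha3, 65.0, 59.6, 64.8 and 62.6 in KO_beta and 63.3, 62.2, 56.0 and 61.9 in WT_beta, the narrowest range of the 31 in proportion, with KO_alpha3 50 lowest and KO_alpha3 81 highest.

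Of the other transport lists, only Kpna4 passed in a knockout. In KO_alpha3 1 of 23 transport receptors passed, Kpna4 itself at -6.46 ± 0.13 (edgeR adjusted p = 1.34e-14), while 7 others were at an unadjusted p under 0.05, as 10.8% of all genes were. In KO_alpha3 0 of 7 Ran system, 0 of 15 mRNA export and 0 of 18 lamina and envelope genes passed. The lowest p-values in the last 3 lists were those of Rangap1 (0.13 ± 0.06), Thoc6 (0.15 ± 0.06) and Syne3 (-0.78 ± 0.35), with 1 in each list at an unadjusted p under 0.05. In KO_beta 0 of these lists' genes passed in edgeR's test, with 1 transport receptor and 1 lamina and envelope gene at an unadjusted p under 0.05, as 2.23% of all genes were. These were Kpnb1 (0.28 ± 0.10) and Tor1a (0.12 ± 0.05), while Rcc1 (-0.25 ± 0.17) and Alyref (-0.29 ± 0.22) had the lowest p of the other lists. Kpnb1 was also at 0.24 ± 0.10 in KO_alpha3 (edgeR unadjusted p = 0.0357).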

How the data were processed

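Polyadenylated RNA of 16 libraries in 4 groups was counted per gene. The authors deposited raw read counts per gene. The submitters' processing notes name HTSeq 0.6.1p1, TopHat2 2.0.10, DESeq2 1.6.3, cutadapt and bcl2fastq 2.17.1.14 and the build mm10. They give no settings of the counting, and 0 per-sample columns of the count table were left unused. From the counts, genes were filtered with edgeR's filterByExpr (minimum count 10, minimum total 15), which left 15641 genes, all 31 nucleoporins among them, scaled by TMM and tested with edgeR 4.0.16's quasi-likelihood test in R 4.3.3, with Benjamini-Hochberg adjustment over all genes tested and a threshold of 0.05. All 16 libraries entered each fit, with the group as a factor. For the slope, the mean log2 CPM of 34 cell cycle genes (prior count 2) was added, and 15607 genes outside that list were tested. DESeq2 1.42.0 and limma-voom (limma 3.58.1), other scalings, covariates and left-out libraries were alternatives. The scripts were tested on simulated data. Values by library are given for nucleoporins past the threshold (up to 10 by p in each direction) or otherwise for the 3 of lowest p in each comparison, and for the highest and lowest per kilobase in each subcomplex. Of other transport lists, up to 4 genes past the threshold or the 1 of lowest p are named. The members and lists were chosen with earlier results of these data known. Protein sequences were not used here, and FG pairs were counted in codons instead.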

Additional observations from a re-analysis of the deposited data

Results flagged for a closer look

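In 7 of 124 groups of 4 libraries, 1 library lay far from the other 3 for a nucleoporin, with a gap past Dixon's 95% critical value for 4 samples. Chance gives such a gap in about 1 in 20 groups. In KO_beta, Seh1l stood at 81.6 CPM in 402 against 75.0 to 75.8 in the others, and Nup98 at 72.5 CPM in 398 against 65.1 to 66.3. KO_beta 406 was low for 2 genes, with Ndc1 at 15 CPM against 17.4 to 17.7 and Nupl1 at 58.2 CPM against 64.3 to 65.0. Nup88 was at 94.9 CPM in WT_beta 415 and at 109.95 to 112 in the other 3. Nup153 was high in a library of each wild-type group, at 121 CPM in WT_alpha3 79 against 93.5 to 96.9, and at 106 CPM in WT_beta 399 against 94.4 to 95.8.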

How the results depend on the processing

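Counts of 0 nucleoporins in the knockout, wild-type and difference comparisons stayed at 0 under every alternative run, and the number rising with the cell cycle mean lay between 24 and 27 when 1 library was left out. It was 0 with the sensory neuron mean as a second covariate. Per kilobase of transcript the shares of the nucleoporin sum were 28.9% (outer ring), 12.2% (inner ring), 6.03% (transmembrane ring), 15.01% (channel), 26.8% (cytoplasmic side), 11.2% (basket) and 30.96% (FG), and over the union of exons 28.8%, 11.7%, 6.15%, 14.9%, 27.2%, 11.1% and 31.1%, a change of unit by construction. The slope of Nupl1 turned positive with DESeq2's size factors (0.017), upper quartile (0.046) or library size scaling (0.046) and DESeq2 (0.019). It was also positive without the 4 marker-high libraries (0.11) and with the sensory neuron (0.11) or sympathetic (0.093) mean. When 1 library was left out, the slope of Nupl1 ran from -0.024 to 0.071. Nup35's slope turned to -0.12 with the sensory neuron mean, and Aaas in KO_beta to 0.040 without the 4 libraries. The cause was not tested. For single nucleoporins, 1077 values kept direction and side of the threshold, 49 lost it, 19 gained it and 23 reversed. The exon union, the marker covariates, the wild types alone and the set without 4 libraries were chosen after seeing the data. No paired analysis was possible because the groups share no replicate number. With 4 libraries a group, small differences can be missed, and depth (19682595 counts or more) gave every nucleoporin at least 146 reads.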
